A study of Sus scrofa with 9 samples.

Results

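Transcripts of the class I antigen presentation pathway were followed in pig heart: the swine leukocyte antigen (SLA) class I heavy chains SLA-1, SLA-2, SLA-3 and SLA-5, their light chain B2M, the peptide transporter subunits TAP1 and TAP2, the immunoproteasome subunits PSMB8 and PSMB9, and the regulator NLRC5. Rows of the deposited count table were taken by gene symbol, which gave 11 rows for 10 names among 30942 rows, since B2M is listed under a pair of gene identifiers. All 11 rows passed the filter on low counts. The animals were wild-type miniature pigs, with 3 heart RNA libraries for each of 3 treatments: vehicle, doxorubicin alone, or doxorubicin with formononetin (called both drugs below). Doxorubicin, an anthracycline used in chemotherapy, is known for cardiac toxicity, and formononetin is a plant isoflavone. No group received formononetin alone. For dose, timing, age, sex, heart region and SLA haplotype nothing is given in the sources used here. Whether each library stands for its own animal is not stated either, so the p-values cover the spread between these libraries only, and that spread may be technical.

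Class I molecules display short peptides from the inside of a cell to CD8 T cells and are present on most nucleated cells. The immunoproteasome and the ordinary proteasome cut proteins into peptides, the TAP transporter moves these into the endoplasmic reticulum, and a loading complex fits them onto a heavy chain paired with B2M. Interferon signalling is known to raise nearly all of these genes, and NLRC5 is known in human and mouse as the transactivator that drives class I, B2M, TAP1 and PSMB9 promoters. SLA-1, SLA-2 and SLA-3 are the classical heavy chains of the pig, SLA-5 is usually counted as a pseudogene, and the classical genes are highly polymorphic.

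Total counts ranged from 16291952 to 17549359 per library. Heart muscle markers were abundant in all groups: MYH7, the slow myosin heavy chain, had a mean of 34620 CPM (counts scaled to 1000000 per library, with TMM, a correction for library composition) with vehicle, 25870 with doxorubicin and 27830 under both drugs. Among the libraries of both drugs, replicate 2 stood apart, with 14766 genes detected against 18107 to 19304 in the other 8. For calls of member rows that change without it, both results are given below. Changes are log2 fold changes ± SE from the edgeR quasi-likelihood test over 14846 genes, called at a Benjamini-Hochberg adjusted p under 0.05. In whole-tissue RNA, fewer cells of a type and less RNA per cell cannot be told apart.

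With doxorubicin, B2M and TAP1 about doubled and SLA-3 rose from a low level, while the SLA-2 and SLA-5 rows fell. With formononetin added, B2M, TAP1 and TAP2 were lower than with doxorubicin alone, NLRC5 was higher, and the SLA-2 row fell much further. A neighbouring class I row that overlaps SLA-2 in part, LOC100513601, rose where SLA-2 fell. The merged SLA-1, SLA-2, SLA-3 and SLA-5 rows fell with both drugs against doxorubicin (-1.13) and against vehicle (-1.65). With doxorubicin against vehicle that merged total did not pass the test. The total over the 6 class I rows from SLA-1 to SLA-2, a set chosen after seeing the data, did not pass in any comparison. Against vehicle, doxorubicin gave 4 rows that rose (SLA-3, both B2M rows and TAP1), 2 that fell (SLA-2 and SLA-5) and 5 that did not pass. Over all genes tested 33.3% were called, 16.3% upward and 17.0% downward. The 11 rows had a median log2 change of 0.50 against -0.0019 over all genes. Without the second doxorubicin plus formononetin library, which shares in the estimate of the spread, 8 rows passed, the added ones being PSMB8 and PSMB9. The percentages over all genes given here come from the fit to all libraries and are not those of that fit.

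Doxorubicin plus formononetin against doxorubicin gave 3 rows that rose (SLA-3, SLA-5 and NLRC5), 5 that fell (SLA-2, both B2M rows, TAP1 and TAP2) and 3 that did not pass, where 28.1% of all genes were called, 14.7% upward and 13.5% downward. The median of the 11 rows was -0.54 against -0.0101 over all genes. Doxorubicin plus formononetin against vehicle gave 1 row that rose (SLA-3), 1 that fell (SLA-2) and 9 that did not pass, where 1.76% of all genes were called, 0.956% upward and 0.808% downward. The median was 0.26 against -0.011. The comparisons share libraries, so their values are set side by side and are not independent of each other.

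The 3 libraries of one group lay wholly outside those of the other for 4 rows upward and 2 downward with doxorubicin against vehicle, where 55.3% of all genes tested did so, 27.6% upward and 27.7% downward. For doxorubicin plus formononetin against doxorubicin this held for 3 rows upward and 6 downward, against 42.2% of all genes, 20.0% upward and 22.2% downward. For doxorubicin plus formononetin against vehicle it held for 4 rows upward and 2 downward, against 23.6% of all genes, 10.6% upward and 13.0% downward.

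**Figure D1:**
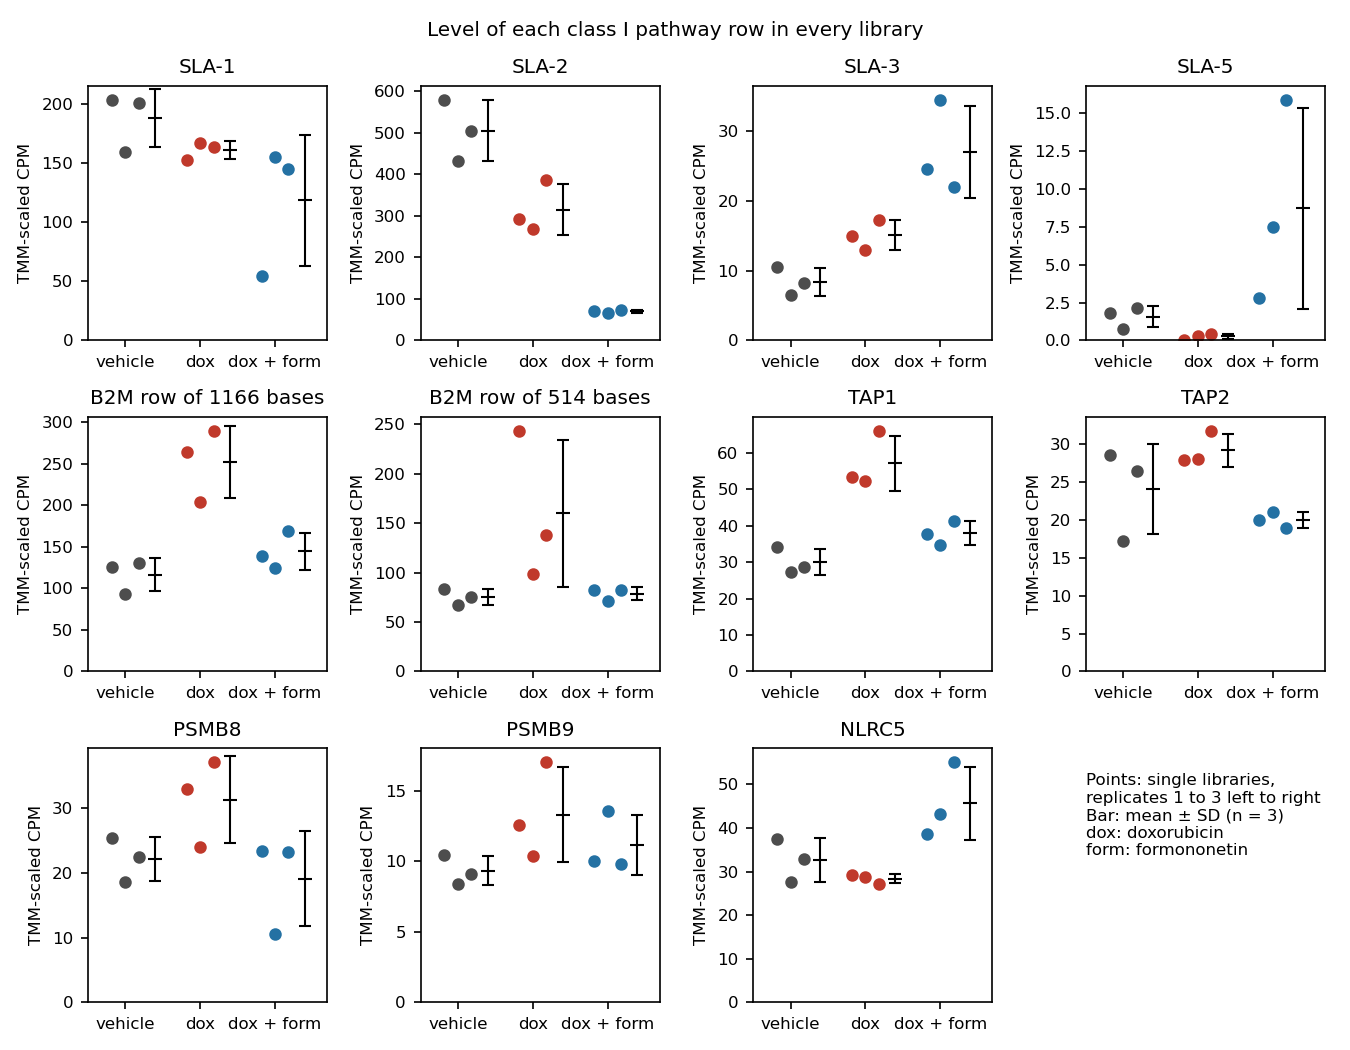
TMM-scaled CPM of each of the 11 rows (vertical axes, each from 0) in the 9 libraries, by group; points are libraries and bars are the mean ± SD (n = 3). The TAP1 panel shows doxorubicin libraries from 52.4 to 65.9 above all others, and the SLA-2 panel shows doxorubicin plus formononetin libraries from 66.3 to 72.2 below all others.

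The members span a wide range of levels. Per kilobase of the deposited exon length, vehicle hearts held 229 ± 33.1 CPM per kb of SLA-2 (SD, n = 3), 147 ± 15.6 of the B2M row of 514 bases, 99.7 ± 17.3 of the B2M row of 1166 bases and 92.2 ± 12.1 of SLA-1. The last 2 lie within 1 SD of each other. PSMB8 followed at 18.3 ± 2.82, TAP1 at 10.5 ± 1.28, PSMB9 at 8.56 ± 0.953 and TAP2 at 7.47 ± 1.86 CPM per kb, of which PSMB9 lies within 1 SD of TAP2. NLRC5 stood at 4.50 ± 0.681, SLA-3 at 2.72 ± 0.653 and SLA-5 at 1.49 ± 0.664 CPM per kb.

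The heavy chain genes lie together on chromosome 7 of the pig assembly Sscrofa11.1, all on the + strand, and their annotated spans overlap. SLA-1 runs from 22824137 to 22920154, SLA-5 from 22851888 to 22854782, SLA-2 from 22916747 to 22959405 and SLA-3 from 22938211 to 22942735. SLA-5 therefore lies inside the span of SLA-1, SLA-3 inside that of SLA-2, and SLA-1 and SLA-2 overlap by 3408 bases. A further pair of class I loci lies inside the span of SLA-1: LOC100515902, from 22868063 to 22871503, which the table describes as like a class I alpha chain, and LOC100513601, from 22888616 to 22920154, described as resembling a chimpanzee class I alpha chain. LOC100513601 also overlaps SLA-2 by 3408 bases. How the authors' counting assigned reads that match several of these rows is not given in the sources used here. Each single SLA value is therefore uncertain. These 2 loci were added to the account after their values were seen.

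**Figure D2:**
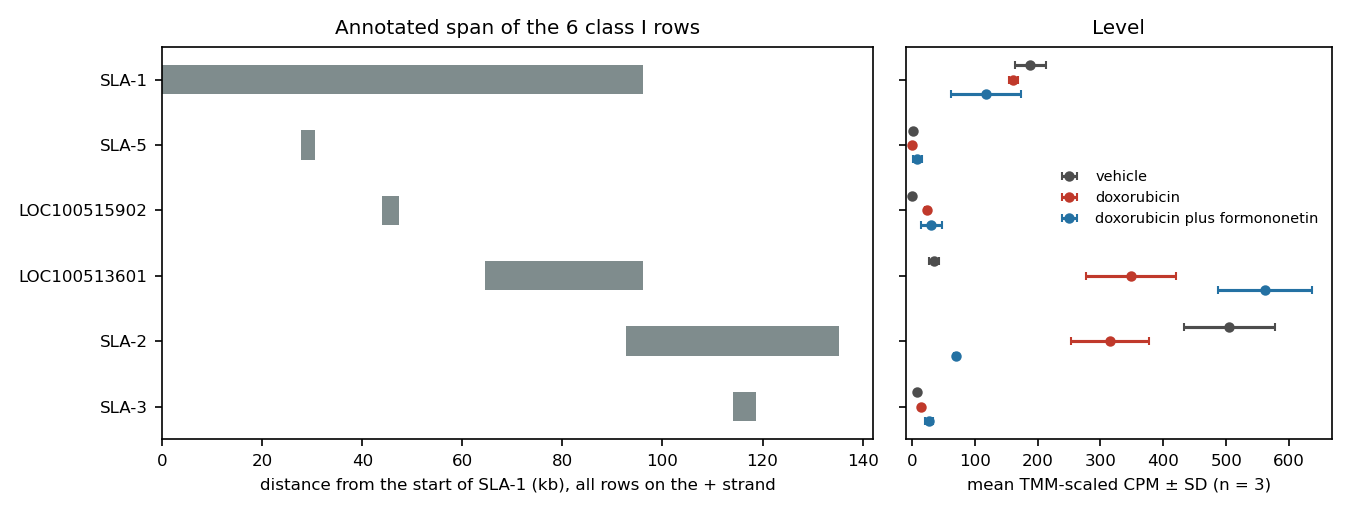
Left, annotated spans of the 6 class I rows by distance from the start of SLA-1 (kb); right, mean TMM-scaled CPM ± SD (n = 3) of each row by group. SLA-2 is highest with vehicle at 505 CPM. LOC100513601, whose span lies inside that of SLA-1 and overlaps the start of SLA-2, is highest with doxorubicin plus formononetin at 562 CPM.

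SLA-2 read 578, 432 and 505 CPM in the vehicle libraries, 292, 268 and 386 with doxorubicin, and 71.1, 66.3 and 72.2 under both drugs. The groups formed 3 steps with no overlap. The change was -0.68 ± 0.15 with doxorubicin against vehicle (edgeR adjusted p = 0.00493), -2.17 ± 0.15 with formononetin added (adjusted p = 2.13e-05) and -2.85 ± 0.16 for doxorubicin plus formononetin against vehicle (adjusted p = 4.69e-06). Every alternative fit that kept the row kept these 3 calls.

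LOC100513601 went the other way: 37.0, 25.8 and 42.8 CPM with vehicle, 324, 292 and 428 with doxorubicin, and 572, 631 and 482 under both drugs. Here too the 3 groups did not overlap. It rose by 3.31 ± 0.21 with doxorubicin (edgeR adjusted p = 7.58e-06) and by a further 0.69 ± 0.19 with formononetin added (adjusted p = 0.0199), and it lay 3.996 ± 0.215 on the log2 scale above vehicle with both drugs (adjusted p = 4.69e-06). The second of these calls was lost without doxorubicin replicate 1 or 2 or without doxorubicin plus formononetin replicate 1, where the adjusted p reached 0.0829.

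LOC100515902 had 1.14, 0.541 and 0.892 CPM with vehicle, 21.7, 26.7 and 23.4 with doxorubicin, and 48.7, 29.2 and 14.9 under both drugs. All treated libraries lay above all vehicle libraries, and the treated groups overlapped. The changes against vehicle were 4.79 ± 0.44 (edgeR adjusted p = 5.62e-05) and 5.16 ± 0.44 (adjusted p = 0.000161, 0.0547 by limma-voom), and between the treated groups 0.37 ± 0.33 (adjusted p = 0.418).

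SLA-1 differed less between groups, with 203, 159.6 and 201 CPM with vehicle, 153, 167 and 164 with doxorubicin, and 54.6, 156 and 146 under both drugs. The first doxorubicin plus formononetin library was far below the other 8. No comparison passed: the changes were -0.22 ± 0.29, -0.44 ± 0.29 and -0.67 ± 0.29 (edgeR adjusted p = 0.593, 0.278 and 0.28), or -0.22, -0.10 and -0.32 without that library, in the order doxorubicin against vehicle, both drugs against doxorubicin and both drugs against vehicle.

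SLA-3, a low-abundance classical heavy chain, read 10.5, 6.49 and 8.25 CPM with vehicle, 15.0, 13.0 and 17.3 with doxorubicin, and 24.6, 34.5 and 21.96 under both drugs. Its groups again formed 3 steps without overlap, upward where those of SLA-2 went downward. SLA-3 rose by 0.84 ± 0.22 with doxorubicin (edgeR adjusted p = 0.0126, 0.0557 without vehicle replicate 2), by 0.84 ± 0.21 with formononetin added (adjusted p = 0.0136, 0.0579 without doxorubicin replicate 2) and by 1.68 ± 0.22 between vehicle and both drugs (adjusted p = 0.00323).

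SLA-5 was the rarest member, at 1.80, 0.781 and 2.12 CPM with vehicle, 0.0551, 0.296 and 0.431 with doxorubicin, and 2.80, 7.51 and 15.9 under both drugs. The doxorubicin values stand for 1, 5 and 7 counts. The groups did not overlap, with a spread of several-fold inside the last one. The fall with doxorubicin was -2.59 ± 0.78 (edgeR adjusted p = 0.0255) and did not pass with limma-voom (0.311) or without vehicle replicate 1 or 3 or doxorubicin replicate 1 or 2 (0.0622 to 0.0903). The rise with formononetin added was 5.05 ± 0.76 (adjusted p = 0.00102, 0.0661 by limma-voom). Against vehicle the value with both drugs was 2.47 ± 0.62 (adjusted p = 0.0751), which passed with DESeq2 (0.0036), with no filter on low counts (0.00686) and without doxorubicin plus formononetin replicate 1 (0.0391).

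Summed over SLA-1, SLA-2, SLA-3 and SLA-5, the class I count was 703 ± 98.01 CPM with vehicle (SD, n = 3), 492 ± 65.4 with doxorubicin and 224 ± 61.7 under both drugs. The groups did not overlap, and the exact two-sided permutation p was 0.1 for each pair, the smallest that 3 against 3 allows. With those 4 rows merged into 1 before the edgeR fit, the change was -0.52 ± 0.19 for doxorubicin against vehicle (adjusted p = 0.059), -1.13 ± 0.20 for both drugs against doxorubicin (adjusted p = 0.002) and -1.65 ± 0.20 for both drugs against vehicle (adjusted p = 0.00184).

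Adding LOC100513601 and LOC100515902, so that all 6 class I rows of the 135.3 kb between the start of SLA-1 and the end of SLA-2 were counted, gave another result. This sum was 832, 625 and 760.4 CPM with vehicle, 805, 767 and 1019 with doxorubicin, and 773, 924 and 752 under both drugs. The 3 groups overlapped. The merged changes were 0.22 ± 0.14, -0.08 ± 0.14 and 0.14 ± 0.14 (edgeR adjusted p = 0.259, 0.707 and 0.653) in the same order of comparisons, and the exact two-sided permutation p was 0.4, 0.6 and 0.5. With all 11 class I rows of chromosome 7, which adds SLA-6, SLA-7, SLA-8 and a pair of unnamed loci with class I domains, the merged changes were 0.25 ± 0.14, -0.03 ± 0.14 and 0.22 ± 0.14 (edgeR adjusted p = 0.181, 0.881 and 0.448). A p that misses the threshold does not show that the sums were equal.

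The division of the 6-row count among its rows shifted in order over the groups. SLA-2 took 68.4% ± 1.67 of it with vehicle (SD, n = 3), 36.4% ± 1.47 with doxorubicin and 8.66% ± 1.29 under both drugs. LOC100513601 took 4.73% ± 0.792, 40.1% ± 1.99 and 68.8% ± 4.94. SLA-1 took 25.5% (24.4% to 26.5%), 19.0% (16.1% to 21.8%) and 14.4% (7.06% to 19.3%), as mean and range. Replicates of a group lay close together for SLA-2, and the groups did not overlap (exact two-sided permutation p = 0.1 for each pair, the smallest possible). Among the 4 named SLA genes alone, the SLA-2 share was 71.8% ± 1.21, 63.8% ± 4.14 and 33.3% ± 11.5. Haplotypes are not given, so a difference in SLA alleles between the animals of the groups and a difference due to treatment cannot be told apart for any single SLA row.

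**Figure D3:**
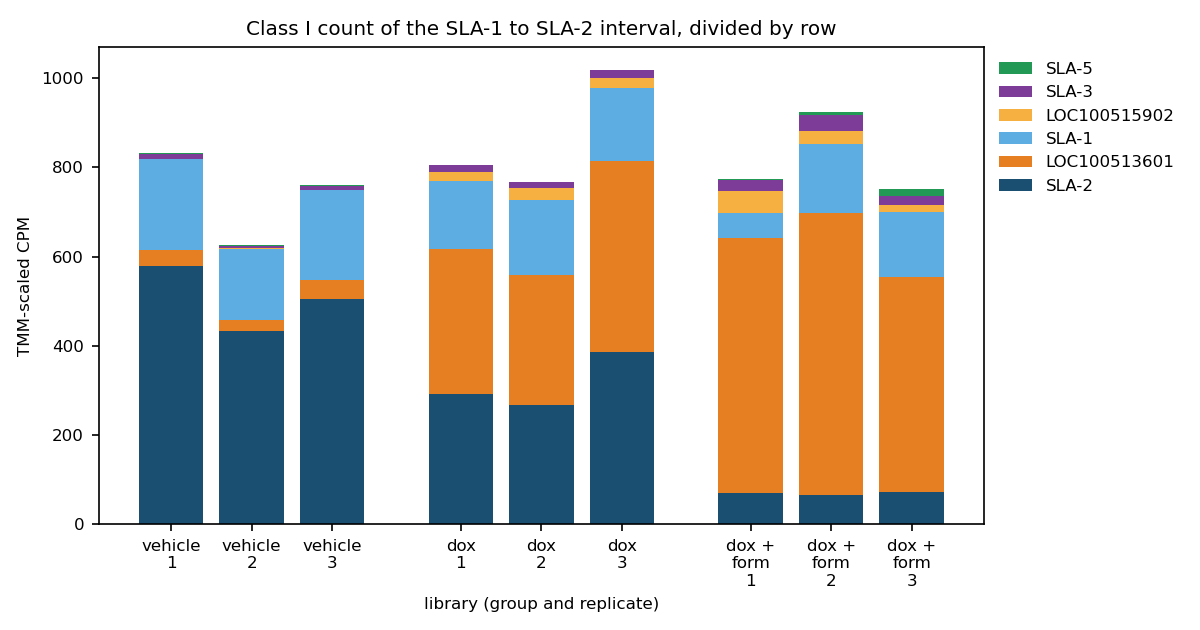
Stacked TMM-scaled CPM of the 6 class I rows between SLA-1 and SLA-2 in each of the 9 libraries; colours are rows. Bar heights overlap between groups, from 625 to 1019 CPM, while SLA-2 makes up 68.4% of the vehicle bars on average and LOC100513601 68.8% of the doxorubicin plus formononetin bars.

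B2M encodes beta-2-microglobulin, the invariant light chain without which class I heavy chains do not reach the cell surface. Its rows lie 21.7 kb apart on chromosome 1, on the - strand: the row of 1166 bases from 126837721 to 126844043 and the row of 514 bases from 126865767 to 126878501. They may share reads. The longer row read 125.8, 93.1 and 129.8 CPM with vehicle, 263, 204 and 289 with doxorubicin, and 139, 125 and 169 under both drugs. Every doxorubicin library was above the other 6. It rose by 1.12 ± 0.17 with doxorubicin (edgeR adjusted p = 0.0007) and fell with formononetin added (-0.80 ± 0.17, adjusted p = 0.00553). With both drugs it lay 0.31 ± 0.17 above vehicle (adjusted p = 0.377).

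The shorter B2M row read 83.6, 67.6 and 75.1 CPM with vehicle, 243, 98.7 and 138 with doxorubicin, and 82.7, 71.1 and 82.5 under both drugs. The doxorubicin libraries were again the highest, with a wide spread among them. The changes were 1.08 ± 0.25 (edgeR adjusted p = 0.00748), -1.02 ± 0.25 (adjusted p = 0.0126) and 0.06 ± 0.25 (adjusted p = 0.928). Without doxorubicin replicate 1, the highest, the first 2 were 0.65 and -0.59 and still passed. Both B2M rows summed gave 192 ± 26.9, 412 ± 102.6 and 223 ± 27.8 CPM (SD, n = 3), and merged into 1 row they rose by 1.10 ± 0.18 with doxorubicin (edgeR adjusted p = 0.00107) and fell by 0.89 on the log2 scale with formononetin added (SE 0.18, adjusted p = 0.00465).

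The transporter and immunoproteasome genes sit in 32.4 kb of chromosome 7, within the class II part of the SLA complex: TAP2 from 25045085 to 25056915, PSMB8 from 25058456 to 25061666, TAP1 from 25062772 to 25071989 and PSMB9 from 25072133 to 25077508. TAP1 on the - strand and PSMB9 on the + strand face away from each other with 143 bases between their starts, the bidirectional arrangement known from other mammals. TAP1 passed the test with doxorubicin and PSMB9 did not, and the difference between them was not tested.

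TAP1 read 34.2, 27.3 and 28.7 CPM with vehicle, 53.3, 52.4 and 65.9 with doxorubicin, and 37.8, 34.8 and 41.3 under both drugs. The 3 groups did not overlap, and the group with both drugs lay between the others. TAP1 rose by 0.93 ± 0.13 with doxorubicin (edgeR adjusted p = 0.000481) and fell with formononetin added (-0.59 ± 0.13, adjusted p = 0.00707). Against vehicle the value with both drugs was 0.34 ± 0.13 (adjusted p = 0.235). These calls held in all 20 alternative fits.

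TAP2, the partner of TAP1 in the transporter, read 28.6, 17.3 and 26.4 CPM with vehicle, 27.9, 28.0 and 31.7 with doxorubicin, and 20.1, 21.1 and 18.9 under both drugs. The groups overlapped between vehicle and doxorubicin, where the change was 0.28 ± 0.17 (edgeR adjusted p = 0.233). TAP2 fell with formononetin added (-0.54 ± 0.17, adjusted p = 0.0338), a call lost without any 1 doxorubicin library or without replicate 1 or 3 of both drugs (adjusted p = 0.067 to 0.104). Against vehicle the value with both drugs was -0.27 ± 0.17 (adjusted p = 0.456).

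PSMB8, which replaces PSMB5 in the immunoproteasome, read 25.4, 18.6 and 22.5 CPM with vehicle, 33.0, 24.0 and 37.1 with doxorubicin, and 23.4, 10.6 and 23.2 under both drugs. The lowest value was that of the second library with both drugs, the one with few genes detected. The changes were 0.50 ± 0.27, -0.72 ± 0.27 and -0.22 ± 0.27 (edgeR adjusted p = 0.171, 0.067 and 0.726). Without that library the first passed (adjusted p = 0.0284), as it did with only the vehicle and doxorubicin libraries fitted (0.0325). The second passed with DESeq2 (0.0336), with limma-voom (0.0472), with no filter on low counts (0.026) and without doxorubicin plus formononetin replicate 3 (0.0455). That second change includes the 10.6 CPM of replicate 2 with both drugs, against 23.4 and 23.2 in the rest of its group. Its size without replicate 2 is not given here.

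PSMB9, which replaces PSMB6, read 10.5, 8.41 and 9.15 CPM with vehicle, 12.6, 10.4 and 17.0 with doxorubicin, and 10.04, 13.6 and 9.83 under both drugs. The groups overlapped in each comparison. The changes were 0.51 ± 0.21, -0.25 ± 0.21 and 0.26 ± 0.21 (edgeR adjusted p = 0.0859, 0.395 and 0.576). The first passed with 2 groups only (0.0481), without doxorubicin replicate 2 (0.0496) and without doxorubicin plus formononetin replicate 2 (0.0439).

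The ratio of each inducible subunit to the constitutive one it replaces does not depend on library scaling. On the log2 scale PSMB9 to PSMB6 was -3.09 ± 0.15 with vehicle (SD, n = 3), -2.50 ± 0.25 with doxorubicin and -2.76 ± 0.37 with both drugs. PSMB8 to PSMB5 was -1.87 ± 0.19, -1.66 ± 0.23 and -2.17 ± 0.61. PSMB10, the remaining inducible subunit, to PSMB7 was -2.22 ± 0.14, -1.82 ± 0.27 and -2.31 ± 0.08. The ratios separated the groups for PSMB9 to PSMB6 with doxorubicin against vehicle (difference 0.60) and for PSMB10 to PSMB7 with both drugs against doxorubicin (difference -0.49), each with an exact two-sided permutation p of 0.1. In the latter comparison PSMB7 was higher (0.28) and PSMB10 lower (-0.23), neither passing by edgeR (adjusted p = 0.0962 and 0.342). Over the 9 ratio tests the Benjamini-Hochberg adjusted exact p was 0.36 or more throughout.

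NLRC5, the class I transactivator, is encoded on chromosome 6 from 18933179 to 19036288 on the + strand. It read 37.5, 27.6 and 32.9 CPM with vehicle, 29.2, 28.7 and 27.2 with doxorubicin, and 38.7, 43.2 and 55.1 under both drugs. The libraries with both drugs were above all others. NLRC5 rose with formononetin added to doxorubicin (0.69 ± 0.15, edgeR adjusted p = 0.00669), a call kept in all 20 alternative fits, while B2M and TAP1 fell in the same comparison. With doxorubicin against vehicle its change was -0.20 ± 0.15 (adjusted p = 0.326), and with both drugs against vehicle 0.48 ± 0.15 (adjusted p = 0.135).

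**Figure D4:**
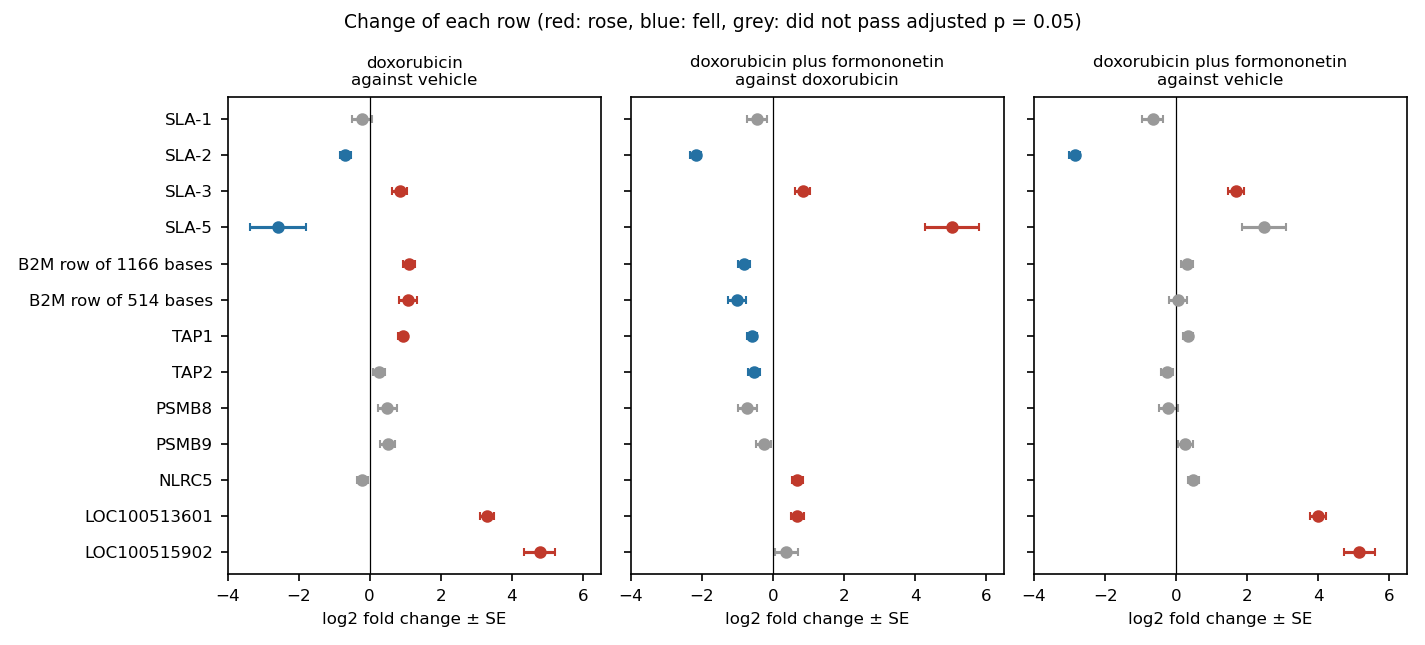
Log2 fold change ± SE (horizontal axes) of the 11 rows and the 2 added class I loci in the 3 comparisons; red rose, blue fell, grey did not pass at an adjusted p of 0.05. B2M and TAP1 are red with doxorubicin and blue with formononetin added, and SLA-2 is blue in every panel, down to -2.85.

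Genes around the pathway were read from the same test, in which 33.3% of all genes were called with doxorubicin (16.3% upward, 17.0% downward) and 28.1% with formononetin added (14.7% upward, 13.5% downward). Counts of these short lists are given as descriptions beside those shares. Of 7 peptide loading genes tested, 4 rose with doxorubicin and none fell. HSPA5, the endoplasmic reticulum chaperone BiP, rose from 228 to 399 CPM (0.81 ± 0.11, edgeR adjusted p = 0.000413), and PDIA3, the thiol oxidoreductase of the loading complex, rose by 0.54 ± 0.09 (adjusted p = 0.00128). UGGT1, the folding sensor (0.41), and the chaperone CANX (0.36) rose less, and the CANX call was lost in 8 of 20 alternative fits. CALR was higher with doxorubicin (0.275) without passing (edgeR adjusted p = 0.0637). TAPBP, encoding tapasin, the bridge between TAP and the heavy chain, read 59.1, 61.8 and 68.4 CPM in the 3 groups and passed in no comparison. TAPBPL was lower with doxorubicin (-0.34, edgeR adjusted p = 0.112). It was higher with formononetin added (0.45, adjusted p = 0.0501), and neither change passed by edgeR. With formononetin added, 5 of the 7 fell: HSPA5 (-1.24), UGGT1 (-0.60), PDIA3 (-0.60), CALR (-0.59) and CANX (-0.49). Between both drugs and vehicle 0 passed by edgeR, 2 had an unadjusted p under 0.05, 1 passed by DESeq2 and 0 by limma-voom. Several of these chaperones serve protein folding at large.

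Of 8 peptide trimming genes, 4 rose with doxorubicin, none fell, and 3 fell with formononetin added, where 28.1% of all genes were called against 33.3% with doxorubicin. With doxorubicin THOP1 (-0.46), BLMH (-0.18), LNPEP (-0.165) and LAP3 (-0.08) were lower without passing. The median log2 change of the 8 was 0.11 with doxorubicin and -0.28 with formononetin added. ERAP2 and ERAP1, the aminopeptidases that shorten peptides in the endoplasmic reticulum, led the list. ERAP2 read 36.1, 23.3 and 31.3 CPM with vehicle, 54.6, 56.9 and 62.6 with doxorubicin, and 35.4, 33.6 and 44.8 under both drugs. Its doxorubicin libraries were above all others. It rose by 0.94 ± 0.16 with doxorubicin (edgeR adjusted p = 0.00148) and fell with formononetin added (-0.61 ± 0.16, adjusted p = 0.0168). ERAP1 changed by 0.74 ± 0.14 (adjusted p = 0.00265) and -0.73 ± 0.14 (adjusted p = 0.00394). The cytosolic peptidases NPEPPS and TPP2 each rose by 0.29 with doxorubicin, calls lost in 8 and 7 of 20 alternative fits, and NPEPPS fell with formononetin added (-0.32), a call lost in 9.

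Of 5 immunoproteasome partners, PSME1 and PSME3 rose with doxorubicin and fell with formononetin added. Over all genes 33.3% were called with doxorubicin (16.3% upward) and 28.1% with formononetin added (13.5% downward). POMP (0.335), PSMB10 (0.17) and PSME2 (0.14) did not pass by edgeR with doxorubicin (adjusted p = 0.0736, 0.469 and 0.398), nor in the other comparisons. PSME1, a subunit of the PA28 proteasome activator, rose from 99.3 to 157 CPM (0.66 ± 0.10, edgeR adjusted p = 0.000799) and fell to 117 (-0.42 ± 0.10, adjusted p = 0.0113). PSME3, the nuclear PA28 subunit, changed by 0.40 and -0.40, calls lost in 6 and 9 of 20 alternative fits. Of the constitutive subunits PSMB5, PSMB6 and PSMB7, 0 passed in any comparison by edgeR, DESeq2 or limma-voom, with 1, 1 and 0 at an unadjusted edgeR p under 0.05.

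Among 6 tested class I relatives and B2M partners outside the members, SLA-8, a non-classical heavy chain, read 26.8, 26.4 and 27.4 CPM with vehicle, 25.9, 22.9 and 31.5 with doxorubicin, and 13.0, 14.9 and 10.3 under both drugs. The libraries with both drugs were below all others. It fell with formononetin added (-1.07 ± 0.16, edgeR adjusted p = 0.00103) and against vehicle (-1.08 ± 0.16, adjusted p = 0.00758). CD1D, which presents lipids, rose with doxorubicin (1.43 ± 0.35, adjusted p = 0.00961), and FCGRT, the Fc receptor heavy chain that pairs with B2M, fell (-0.44 ± 0.09, adjusted p = 0.00449). With formononetin added, CD1D (-1.06) and SLA-6 (-0.39) fell and FCGRT rose (0.33), and the CD1D call was lost in 11 of 20 alternative fits.

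Of 26 class I regulators tested, 8 rose and 4 fell with doxorubicin, where 33.3% of all genes were called, 16.3% upward and 17.0% downward. With formononetin added 3 rose and 8 fell, where 28.1% were called, 14.7% upward and 13.5% downward. The median log2 change of the 26 was 0.39 and -0.32 in these comparisons, and 0 passed by edgeR between both drugs and vehicle (5 at an unadjusted p under 0.05, 1 by DESeq2, 0 by limma-voom). IFNGR1, a chain of the interferon gamma receptor, changed by 1.17 ± 0.15 with doxorubicin (edgeR adjusted p = 0.000295) and -1.08 ± 0.15 with formononetin added (adjusted p = 0.000697), and STAT2, a transcription factor of interferon signalling, by 0.97 ± 0.15 and -0.64 ± 0.15 (adjusted p = 0.000677 and 0.00847). RELA, a subunit of NF-kappa-B, went the other way, with -0.81 ± 0.12 and 0.74 ± 0.12 (adjusted p = 0.000584 and 0.00149), and TYK2, a kinase of interferon receptors, fell with doxorubicin (-0.49 ± 0.09, adjusted p = 0.0023). Of the interferon genes only IFNG and IFNB1 were looked up, and neither passed the filter on low counts. IFNG had 0 to 8 counts per library, in sum 3 with vehicle, 20 with doxorubicin and 6 under both drugs. IFNB1 had no count in any library.

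Of 9 class II genes, whose products display peptides of extracellular origin, 6 rose with doxorubicin and none fell. Over all genes 16.3% were called upward and 17.0% downward in that comparison. SLA-DQB1 rose from 51.3 to 105 CPM (1.04 ± 0.14, edgeR adjusted p = 0.000372) and SLA-DQA1 from 90.5 to 167 CPM (0.88 ± 0.14, adjusted p = 0.000826). The others were SLA-DMB (0.65), SLA-DRA (0.63), SLA-DMA (0.62) and CD74 (0.37). With formononetin added, SLA-DQB1 (-0.69) and SLA-DMB (-0.46) fell, where 13.5% of all genes were called downward. The other 7 did not pass. Of these, SLA-DRA, SLA-DQA1, SLA-DMA and SLA-DOB were lower, and SLA-DOA (0.58), SLA-DRB1 (0.37) and CD74 (0.10) were higher. The polymorphic class II genes carry the same doubt over alleles as the class I rows.

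**Figure D5:**
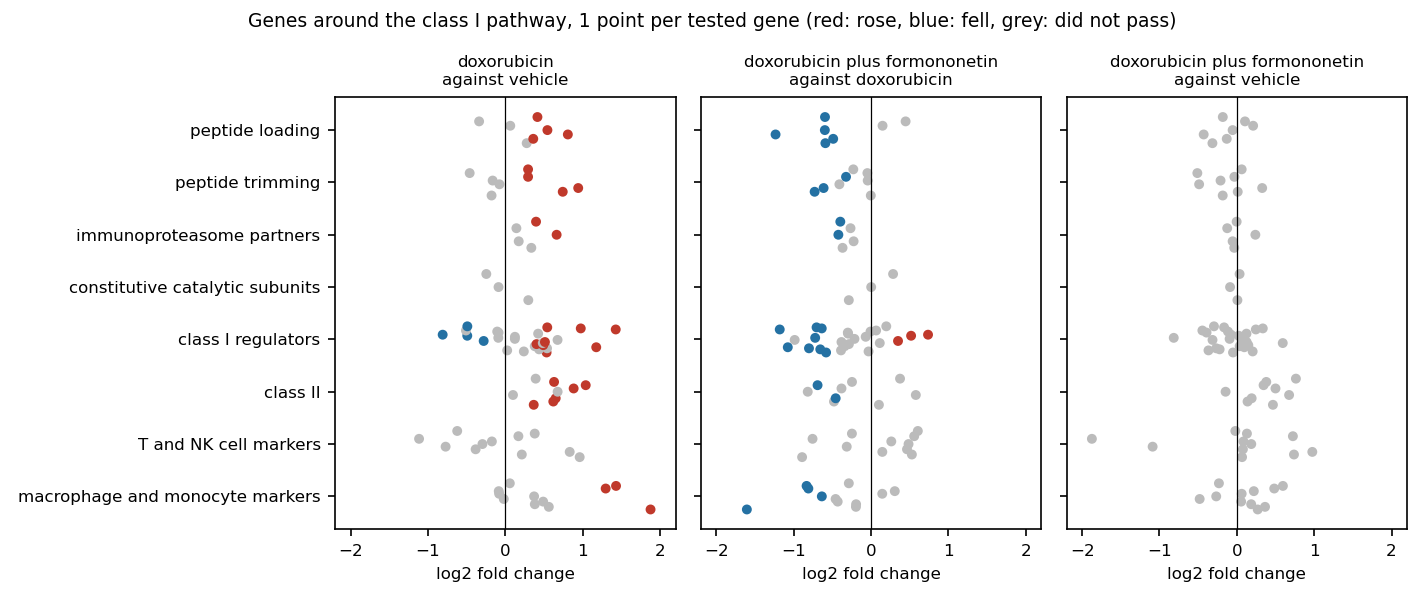
Log2 fold change (horizontal axes) of each tested gene in 6 groups of genes around the class I pathway and 2 immune cell marker lists, in the 3 comparisons; red rose, blue fell, grey did not pass. Peptide loading shows 4 red points with doxorubicin and 5 blue ones with formononetin added, and none of the points of these 8 lists is coloured in the panel for both drugs against vehicle, the list with SLA-8 not being plotted.

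Markers of other cell types were read in the same comparisons, beside the 33.3% of all genes called with doxorubicin and the 28.1% called with formononetin added. Of 11 macrophage and monocyte markers, AIF1, FCGR3A and CTSS rose with doxorubicin and none fell, and those 3 and CD163 fell with formononetin added. These numbers of calls are near those shares of all genes, which count both directions together. Within each comparison the calls of this list all went the same way. Of the 8 that did not pass with doxorubicin, CD14 (-0.02), CD68 (-0.08) and CSF1R (-0.09) were lower. MRC1 (0.06), CD163 (0.37), C1QA (0.56), C1QB (0.38) and C1QC (0.49) were higher. Of the 7 that did not pass with formononetin added, CSF1R (0.31) and CD68 (0.14) were higher. CD14 (-0.46), MRC1 (-0.29), C1QA (-0.20), C1QB (-0.19) and C1QC (-0.43) were lower. Over all genes, 16.3% were called upward with doxorubicin and 13.5% downward with formononetin added. The summed level of the list ranged from 221 to 351 CPM with vehicle, 423 to 440.4 with doxorubicin and 313 to 344 with both drugs, with no marker at 0 throughout a group. Their part in the changes of B2M, TAP1 and the class II genes was not tested. Of 11 T and NK cell markers tested 0 passed in any comparison by edgeR or DESeq2, with 1 at an unadjusted edgeR p under 0.05 in each and 1 passing by limma-voom with doxorubicin. The list of 12 summed to 21.6 to 39.6 CPM with vehicle, 28.4 to 36.4 with doxorubicin and 31.7 to 37.3 with both drugs, KLRD1 being at 0 in all doxorubicin libraries. Of 6 B and plasma cell markers 1 was tested, JCHAIN, which rose with doxorubicin (0.81 ± 0.29, edgeR adjusted p = 0.0486), a call lost in 7 of 20 alternative fits.

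Of 4 dendritic cell markers tested, CD83, a marker of mature cells, rose with doxorubicin (1.46 ± 0.27, edgeR adjusted p = 0.00213) and fell with formononetin added (-1.37 ± 0.27, adjusted p = 0.00407). XCR1, a chemokine receptor of cross-presenting cells, went the other way with formononetin added (1.54 ± 0.50, adjusted p = 0.0387, lost in 7 of 20 alternative fits). With doxorubicin XCR1 (0.34), FLT3 (0.55) and BATF3 (0.27) did not pass. Of 8 heart muscle markers 6 fell and PLN rose with doxorubicin, and TNNT2, TNNI3, MYL3 and RYR2 rose with formononetin added. Of 7 endothelial markers EGFL7 (-1.48), VWF (-0.61), TIE1 (-0.55) and CDH5 (-0.45) fell with doxorubicin. KDR (0.12), TEK (-0.05) and PECAM1 (-0.07) did not pass there. EGFL7 (0.92), VWF (0.81) and CDH5 (0.59) rose with formononetin added. TIE1 (0.33), TEK (0.22), KDR (-0.04) and PECAM1 (280.5 CPM in both groups) did not pass in that comparison. Of 7 fibroblast markers PDGFRA (-1.86), DCN (-1.19) and PDGFRB (-0.67) fell with doxorubicin. There LUM (0.67), COL1A1 (0.44) and COL1A2 (0.24) were higher and COL3A1 (-0.38) was lower, without passing. PDGFRA (1.86), DCN (1.31), COL3A1 (0.83) and PDGFRB (0.76) rose with formononetin added, the COL3A1 call being lost in 10 of 20 alternative fits. LUM (-0.48), COL1A1 (0.39) and COL1A2 (0.18) did not pass in that comparison. Over all genes 33.3% were called with doxorubicin (16.3% upward, 17.0% downward) and 28.1% with formononetin added (14.7% upward, 13.5% downward). The part of these cell types in the changes of the members was not tested.

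The pattern over libraries was also compared with that of every other gene by the Pearson correlation of log2 CPM over the 9 libraries, as a description, since all libraries share the same 3 groups. TAP1 was most like CTSS, the endosomal protease cathepsin S (0.995), GDE1 (0.991) and HERC5, an interferon-induced ISG15 ligase (0.99). The longer B2M row was most like BACE2 (0.995), KTN1 (0.994) and APLF (0.988), and the shorter one most like IL15, the cytokine of NK and memory CD8 T cells (0.953), KLHL5 (0.946) and THBS1 (0.919). SLA-2 was most like ACSM5 (0.979), ZBTB5 (0.972) and TXNIP (0.972). SLA-1 was most like LOC110260098 (0.962), CCSAP (0.953) and ZNF74 (0.945).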

How the data were processed

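The authors deposited 1 table of raw counts per gene for all 9 libraries. Per the labels' protocols, total RNA was column-purified and made into messenger RNA libraries. The aligner, counter, strand setting and handling of shared reads are not given in sources used here. All 11 member rows match RefSeq Sscrofa11.1 in start and end. Counts were filtered with filterByExpr (minimum count 10), TMM-scaled and fitted with edgeR 4.0.16 in R 4.3.3, with 1 mean per group over 9 libraries; p-values were adjusted over 14846 genes. SE is the absolute log2 change over the root of F. The procedure was tested on simulated data. Alternatives used DESeq2 1.42.0, limma-voom 3.58.1, other scaling, no filter, 2 groups only, a replicate block, each library left out, and merged SLA rows. Ratios used a pseudocount of 0.5. Members and gene lists were chosen with earlier results of these data known. Of other genes, up to 5 per list with the smallest p with doxorubicin, every gene called where 5 or fewer were, and the 3 most like TAP1, B2M, SLA-1 and SLA-2 (mean of at least 5 CPM, prior count 2) were named. Of 128 list entries 124 matched by symbol. Replicates of a group differed beyond sampling noise in a chi-square test. A withheld item is not reported here.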

Additional observations from a re-analysis of the deposited data

How the results depend on the processing

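Depth limits SLA-5 most, and unknown counting rules limit every SLA row. Fewer member rows were called where class I rows were merged, by construction: with doxorubicin against vehicle 3 in place of 6 with 4, 6 or 11 rows merged; with both drugs against doxorubicin 5 in place of 8 with 6 or 11 merged; with both drugs against vehicle 1 with 4 merged and 0 with 6 or 11, in place of 2. The merges of 6 and 11 rows were chosen after seeing the data. With each library left out in turn, these counts ranged from 5 to 8, 6 to 8 and 2 to 3. The matching counts over all genes are given here for both drugs against vehicle only. Over all genes, 262 were called for both drugs against vehicle, 748 with DESeq2, 488 with no filter, 118 with 2 groups only, 124 with the replicate block, and 64 to 465 with a library left out; the cause was not tested. The class I sum changed sign against vehicle with 6 and 11 rows: 0.22 and 0.25 with doxorubicin, 0.14 and 0.22 with both drugs. For both drugs against vehicle, PSMB8 ranged from -0.393 to 0.076, its log2 ratio to PSMB5 from -0.522 to 0.048 and the shorter B2M row from -0.011 to 0.152 with a library left out; the first 2 reversed without doxorubicin plus formononetin replicate 2 and the last without vehicle replicate 2. Same-numbered libraries did not deviate together (correlations from -0.204 to 0.0271), so the numbers were not taken as pairs; with the replicate block 6, 8 and 2 member rows passed in the 3 comparisons, TAP2 no longer passing (-0.54, adjusted p = 0.0516) and PSMB8 passing (-0.76, adjusted p = 0.014) with both drugs against doxorubicin.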

Other observations

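A further pair of class I relatives was singled out after values were seen. LOC100511275, described in the table as a class I-related gene protein, read 4.39, 3.79 and 5.80 CPM with vehicle, 64.5, 69.8 and 67.7 with doxorubicin, and 3.83, 3.27 and 4.72 under both drugs. Its doxorubicin libraries lay far above the other 6. It rose by 3.85 ± 0.18 with doxorubicin (edgeR adjusted p = 1.61e-06) and fell with formononetin added (-4.10 ± 0.18, adjusted p = 1.02e-06), and both drugs against vehicle gave -0.25 ± 0.19 (adjusted p = 0.531). LOC100153163, described as MHC class I polypeptide-related sequence B, a kind of stress-induced ligand of the NK cell receptor NKG2D in human, read 12.6, 9.31 and 13.8 CPM with vehicle, 21.6, 17.2 and 30.3 with doxorubicin, and 13.75, 5.68 and 13.57 under both drugs. Its doxorubicin libraries were also the highest. It changed by 0.95 ± 0.31 (edgeR adjusted p = 0.0356) and -1.07 ± 0.31 (adjusted p = 0.0261), calls lost in 5 and 3 of 20 alternative fits. An unnamed class I locus of chromosome 7 read 139 ± 17.5, 191 ± 29.1 and 237 ± 9.57 CPM (SD, n = 3), and rose with doxorubicin (0.46 ± 0.13, edgeR adjusted p = 0.0191) and with both drugs against vehicle (0.76 ± 0.13, adjusted p = 0.0151). Another unnamed class I locus of chromosome 7 read 1.85 ± 1.04, 0.622 ± 0.0919 and 0.991 ± 0.187 CPM (SD, n = 3), and fell with doxorubicin (-1.56 ± 0.54, edgeR adjusted p = 0.0449), a call lost in 10 of 19 alternative fits. Its other comparisons did not pass.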
